A study of Mus musculus with 8 samples.

Results

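The genes described here were 36 members of the cell cycle and replication machinery, chosen by name as the A-, B-, D- and E-type cyclins, the cyclin-dependent kinases that they activate, 2 kinase inhibitors, the E2F factors, the retinoblastoma family, the Mcm helicase and 5 markers of replication and mitosis. The choice followed from the question of whether neurons without ATM re-enter the cell cycle. Genes were taken by name, with no threshold on their values, although earlier results of these data were known when they were chosen. All 36 members were found among the 56691 genes of the count table, and 35 of them were among the 22423 genes that passed the filter on low counts, *E2f8* being the exception. RNA of whole frozen cerebellum had been sequenced from 4 *Atm*-WT (*Atm* +/+) and 4 *Atm*-KO (*Atm* -/-) mice of the B6;129S4-Atm tm1Bal/J line. The study's text gives an age of 6 months and breeding of both genotypes from heterozygous parents. The labels give no treatment, and the mutation was in every cell rather than in a chosen cell type. Mice are named by their number and letter, and 7F in the *Atm*-KO group was the only one with an F.

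ATM is a protein kinase that answers DNA double-strand breaks and, in dividing cells, halts the cell cycle until they are repaired. In the cycle, D-type cyclins with Cdk4 and Cdk6, then E-type cyclins with Cdk2, phosphorylate the retinoblastoma proteins, which release E2F factors to switch on replication genes. Cyclin A then acts in S phase and G2, and cyclin B with Cdk1 drives mitosis. Neurons of the adult cerebellum have left this cycle, and the appearance of cell cycle proteins in neurons is known from ataxia-telangiectasia and its mouse models. Several cell cycle genes have other uses in resting cells, among them the retinoblastoma proteins and p27 (*Cdkn1b*), which keep cells out of the cycle.

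No member passed an adjusted p of 0.05 between the genotypes in edgeR's quasi-likelihood test, and the smallest adjusted p (edgeR) was 0.0931. Over all genes tested, 4 of 22423 passed it, or 0.0178%. At an unadjusted p under 0.05 there were 6 members of 35 (17.1%), beside 20.2% of all genes tested. These 6 were *Rb1* and *Rbl1*, higher in *Atm*-KO cerebella, and *Ccnd3*, *Mcm4*, *Rbl2* and *Mcm6*, lower in them. The background in each direction was 11.7% of genes higher and 8.48% lower. In DESeq2, 3 members passed an adjusted p of 0.05 (*Ccnd3*, *Rb1* and *Rbl1*), where the background was 7.49% of 20724 genes, and in limma voom 0 passed. Without the filter on low counts, edgeR called 1 member (*Ccnd3*), where the background was 1.62% of 36568 genes. *Cdk1*, *Bub1*, *Ccnb1*, *Top2a* and *Mki67*, which dividing cells use in S phase and mitosis, were among the lowest members per length in both genotypes, and none of these passed in edgeR or DESeq2.

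E2F factors recognise short sites close to the start of their target genes, so the promoters of the members were searched for them. The windows ran from 250 bases before to 50 bases after the start of the canonical transcript in GENCODE vM39 (GRCm39). One of the sequences TTTCCCGC, TTTCGCGC, TTTGCCGC and TTTGGCGC, on either strand, occurred in 600 of 21630 promoters of protein-coding genes (2.77%) and in 14 of 36 members (38.9%). Those 14 were *Ccnd3*, *Cdk1*, *Cdk2*, *E2f1*, *E2f2*, *E2f3*, *E2f7*, *E2f8*, *Mcm3*, *Mcm4*, *Mcm5*, *Mcm6*, *Rb1* and *Rbl1*. The cell cycle homology region of late cell cycle genes, searched as TTTGAA or TTCGAA, occurred in 9 of 36 members (25.0%) and in 18.8% of promoters. The CCAAT box that often stands beside it (CCAAT) occurred in 20 of 36 members (55.6%) and in 39.9% of promoters.

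The stretches from 250 to 71 bases before the start are shown for 4 members whose promoters held an E2F match while their transcripts lay in opposite directions between the genotypes. The *Rb1* stretch was chr14:73563578-73563757 on the minus strand, that of *Ccnd3* chr17:47904114-47904293 on the plus strand, that of *Mcm4* chr16:15455335-15455514 on the minus strand and that of *Mcm6* chr1:128287523-128287702 on the minus strand. All are written 5′ to 3′ on the strand of the gene, and capitals mark the E2F matches of either strand, which overlap in *Mcm6*.
Rb1: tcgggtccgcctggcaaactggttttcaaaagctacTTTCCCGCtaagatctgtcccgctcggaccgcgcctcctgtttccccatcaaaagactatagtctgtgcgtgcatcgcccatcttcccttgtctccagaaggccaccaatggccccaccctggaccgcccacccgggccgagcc
Ccnd3: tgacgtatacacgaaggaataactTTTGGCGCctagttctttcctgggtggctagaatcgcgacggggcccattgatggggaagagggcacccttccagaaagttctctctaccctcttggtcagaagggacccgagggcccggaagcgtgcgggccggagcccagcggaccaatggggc
Mcm4: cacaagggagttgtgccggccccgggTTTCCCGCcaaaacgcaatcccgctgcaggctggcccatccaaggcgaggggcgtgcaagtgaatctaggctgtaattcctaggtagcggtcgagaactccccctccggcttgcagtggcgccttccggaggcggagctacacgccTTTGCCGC
Mcm6: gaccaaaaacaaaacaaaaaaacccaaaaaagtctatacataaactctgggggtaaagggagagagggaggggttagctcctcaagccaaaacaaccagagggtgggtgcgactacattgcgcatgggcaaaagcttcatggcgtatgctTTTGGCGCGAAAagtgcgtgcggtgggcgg

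Of these 4 genes, *Rb1* had the higher mean in *Atm*-KO cerebella and the other 3 the lower. Among the 13 tested members with an E2F match, 7 were higher and 6 lower in *Atm*-KO, with a median log2 fold change of 0.09, and 5 had an unadjusted p under 0.05 in edgeR. Among the 22 tested members without one, 7 were higher and 15 lower, the median log2 fold change was −0.08, and 1 (*Rbl2*) had an unadjusted p under 0.05. Only the exact sequences above were searched in these windows, so members without a match were not shown to lack E2F sites. Over all 554 tested genes with a match the median log2 fold change was −0.05, 38.6% were higher in *Atm*-KO and 19.0% had an unadjusted p under 0.05. Over the 14768 tested genes with a promoter window and no match these values were −0.06, 36.1% and 18.7%. Genes with and without a match thus had nearly the same values across the genome.

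The libraries held 65967130 to 88030300 counts each, and levels are given as CPM, counts relative to the TMM-scaled library total, of which 1 CPM stood for 67.6 counts in the smallest library. *Atm* itself (chr9:53348097-53448236) was at 71.5 ± 10.1 CPM (mean ± SD, n = 4 throughout) in *Atm*-WT against 45.4 ± 4.16 CPM in *Atm*-KO, without overlap, with a log2 fold change of −0.66 (SE 0.10, adjusted p = 0.0775 in edgeR). Of 10 lists of cell type markers, oligodendrocyte progenitors (8 of 8 genes), microglia (8 of 8), Bergmann glia and astrocytes (7 of 7) and choroid plexus (6 of 6) had every tested gene lower in *Atm*-KO. Lower means were also found for 7 of 8 genes of Purkinje cells, 6 of 7 of oligodendrocytes, 4 of 5 of granule cell progenitors, 4 of 7 of endothelial cells and 4 of 6 of meningeal fibroblasts, while granule cells had 6 of 7 higher. Over all genes tested, 46.9% were higher in *Atm*-KO, with 51.8% of those of 1 to 10 CPM and 33.9% of those of 10 CPM or more. Their summed levels overlapped between the genotypes in all 10 lists. *Atm*-KO 12M stood apart, with the lowest sum of oligodendrocyte markers (1932 CPM, others 3063 to 4211 CPM) and the highest of granule cell markers (5680 CPM, others 3718 to 4854 CPM). In whole tissue, fewer cells of a type and less RNA per cell cannot be told apart.

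Per kilobase of exons, the members spanned a wide range of levels. The kinase inhibitor *Cdkn1b* was the highest at 36.04 CPM per kb over the 8 libraries, followed by *Pcna*, the sliding clamp of DNA polymerases, at 13.8 CPM per kb. *Rbl2* (7.36 CPM per kb), *Rb1* (7.33), *Ccnd1* (7.03) and *Cdk4* (6.62) came next and lay close together. *Rbl2* was above *Rb1* in *Atm*-WT and below it in *Atm*-KO. At the other end, *Cdk1* (0.0696 CPM per kb), *Bub1* (0.0552), *Ccnb1* (0.0542), *Top2a* (0.0435), *Mki67* (0.0418) and *E2f8* (0.0108) were the lowest. The role lists were mixed along the range, with *Mcm4* and *Mcm7* (3.49 and 3.27 CPM per kb) in its upper part and the G1 kinase *Cdk6* (0.188) below *Ccnb2* (0.482), *Aurka* (0.226) and *Ccna2* (0.221).

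**Figure D1:**
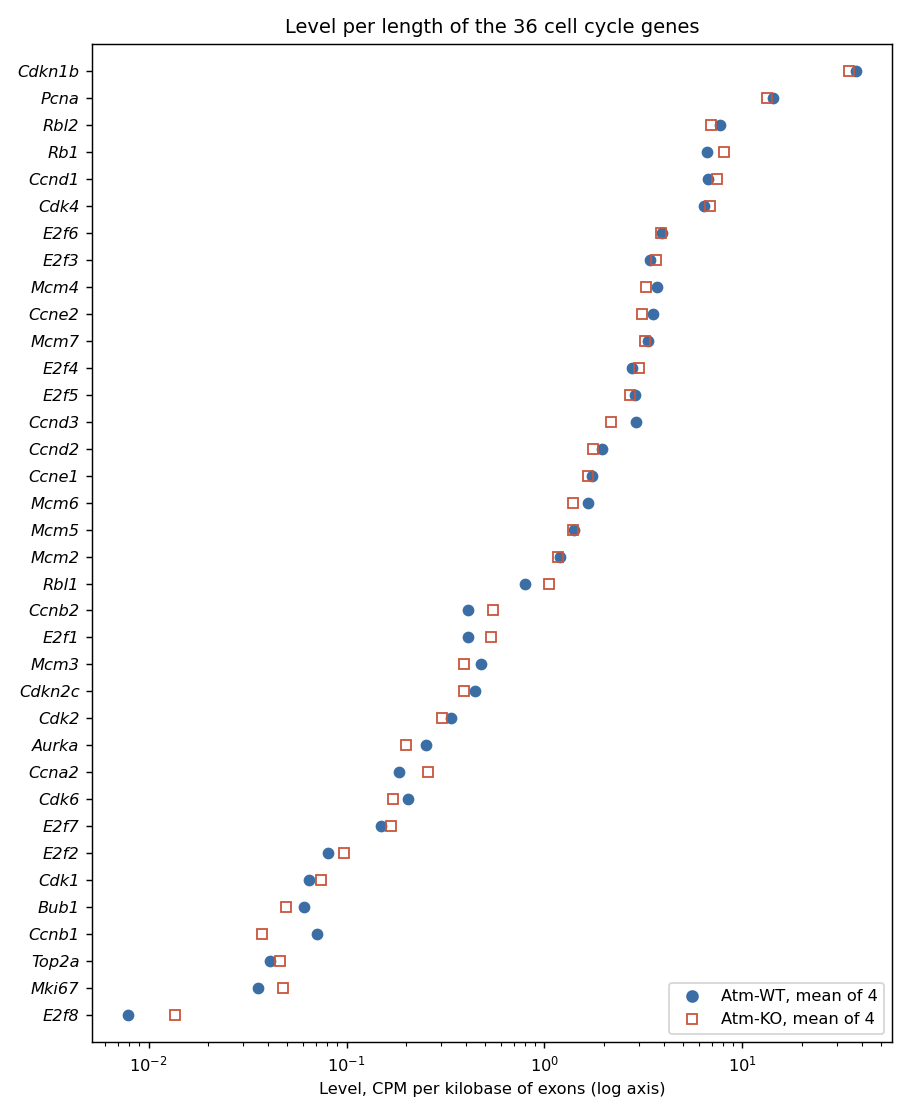
Mean level of each of the 36 genes in CPM per kilobase of exons (log axis), as filled circles for 4 *Atm*-WT and open squares for 4 *Atm*-KO libraries. The symbols of both genotypes lie close together along the whole range, from *Cdkn1b* at 36.04 to *E2f8* at 0.0108 CPM per kb over all libraries.

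Among the D-type cyclins, which start the passage through G1, *Ccnd3* was the member with the smallest p. It was at 28.4, 26.9, 24.1 and 27.2 CPM in *Atm*-WT 2M, 7M, 13M and 32M and at 20.6, 19.5, 20.5 and 19.9 CPM in *Atm*-KO 1M, 7F, 11M and 12M. The 4 *Atm*-KO libraries lay within about 1 CPM of one another, all below the lowest *Atm*-WT library. The mean was 26.7 ± 1.81 CPM in *Atm*-WT against 20.1 ± 0.517 CPM in *Atm*-KO, a log2 fold change of −0.41 (SE 0.075, 95% interval −0.57 to −0.24) with an adjusted p of 0.0931 in edgeR and 0.000541 in DESeq2. Its unadjusted p was under 0.05 in all 16 alternative analyses, in which the log2 fold change ran from −0.43 to −0.36. *Bysl*, a ribosome assembly gene whose exons overlap *Ccnd3* on the opposite strand, was also lower (13.6 ± 1.05 and 11.2 ± 0.503 CPM, log2 fold change −0.28, adjusted p = 0.148 in edgeR), and its part in the counts of *Ccnd3* was not tested. Microglia markers were lower as well, at a summed 132 to 173 CPM in *Atm*-WT against 102 to 135 CPM in *Atm*-KO, with 4 of 8 under an unadjusted p of 0.05 in edgeR (20.2% of all genes tested). Every other marker list except that of granule cells also had the lower mean sum in *Atm*-KO. The part of any of these cell types in the values of *Ccnd3* was not tested.

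The other D-type cyclins overlapped between the genotypes. *Ccnd1* was at 29.0, 38.0, 27.9 and 32.6 CPM in *Atm*-WT against 30.3, 36.8, 38.2 and 36.3 CPM in *Atm*-KO. The log2 fold change was 0.15 (95% interval −0.083 to 0.39, adjusted p = 0.451 in edgeR), and 0.24 without *Atm*-WT 7M. On the opposite strand the exons of *Ccnd1* overlap *LTO1* (14.0 ± 0.977 and 16.2 ± 2.23 CPM, log2 fold change 0.20), whose part in its counts was not tested. *Ccnd2*, the D-type cyclin of granule cell progenitors, was at 19.2, 22.0, 13.4 and 18.8 CPM in *Atm*-WT against 15.1, 19.1, 16.6 and 15.2 CPM in *Atm*-KO, with a log2 fold change of −0.15 (adjusted p = 0.575 in edgeR) that ran from −0.059 without *Atm*-WT 7M to −0.26 without *Atm*-WT 13M. The 6 genes listed as markers of those progenitors summed to 36.2 to 48.1 CPM in *Atm*-WT against 33.6 to 38.4 CPM in *Atm*-KO. Of these, *Atoh1* was at 0.00614 CPM and failed the filter, 4 of the other 5 were lower in *Atm*-KO, where 40.5% of all genes of 1 CPM or more were higher, and 2 (*Gli2* and *Barhl1*) had an unadjusted p under 0.05 in edgeR, as did 20.2% of all genes tested. Whether the other 5 genes were expressed in such progenitors at this age was not tested, nor was their part in the values of *Ccnd2*. The sum of the 3 D-type cyclins was 76.9 ± 8.83 CPM in *Atm*-WT against 72.0 ± 4.46 CPM in *Atm*-KO. *Ccnd3* made up 30.9% to 37.1% of their counts in *Atm*-WT against 25.9% to 31.2% in *Atm*-KO, ranges that overlapped through *Atm*-WT 7M and *Atm*-KO 1M.

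The E-type cyclins, partners of Cdk2 at the entry to S phase, were *Ccne1* at 6.34 ± 1.59 and 5.99 ± 0.871 CPM and *Ccne2* at 19.9 ± 1.89 and 17.6 ± 1.45 CPM in *Atm*-WT and *Atm*-KO. Neither passed the test (adjusted p 0.840 and 0.320 in edgeR). *Ccna2*, the cyclin of S phase and G2, was at 0.739, 0.927, 0.571 and 0.758 CPM in *Atm*-WT against 0.931, 0.955, 1.04 and 1.29 CPM in *Atm*-KO, so that the genotypes did not overlap by a margin of under 1 count. Its log2 fold change was 0.49 (SE 0.24, 95% interval −0.034 to 1.02, adjusted p = 0.275 in edgeR). On the opposite strand the exons of *Ccna2* overlap *Exosc9* (22.6 ± 1.69 and 21.4 ± 1.81 CPM), whose part in its counts was not tested. The mitotic cyclins lay in opposite directions, *Ccnb1* at 0.304 ± 0.148 and 0.162 ± 0.139 CPM and *Ccnb2* at 0.915 ± 0.239 and 1.23 ± 0.233 CPM, with overlap in both. *Ccnb1* overlapped through *Atm*-KO 1M alone (0.367 CPM, other *Atm*-KO 0.0592 to 0.116 CPM), and its log2 fold change was −0.89, and −1.69 without that library (unadjusted p = 0.012, adjusted p = 0.305 in edgeR). In all libraries the adjusted p values of *Ccnb1* and *Ccnb2* in edgeR were 0.404 and 0.385. *Ccnb1*, *Ccnb2*, *Ccnd3* and *Pcna* have annotated pseudogene copies that could share reads with them, and *Ccnb2* lies 16.9 Mb from *Atm* on chromosome 9.

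No kinase passed the test between the genotypes. *Cdk1*, the mitotic kinase, was at 0.330, 0.390, 0.373 and 0.420 CPM in *Atm*-WT against 0.392, 0.413, 0.426 and 0.503 CPM in *Atm*-KO. Its log2 fold change of 0.19 had a 95% interval of −0.42 to 0.80 (adjusted p = 0.733 in edgeR) and was 0.12 without *Atm*-KO 12M. Its exons overlap those of the neuronal gene *Ank3* on the opposite strand, which was at 1029 ± 127 and 1003 ± 85.0 CPM. *Cdk4* was at 22.1 ± 1.37 and 23.5 ± 2.26 CPM, *Cdk2* at 2.13 ± 0.440 and 1.92 ± 0.505 CPM, and *Cdk6* at 2.95 ± 0.110 and 2.49 ± 0.780 CPM, with adjusted p values from 0.585 to 0.769 in edgeR. The inhibitors *Cdkn1b* (171 ± 15.9 and 158 ± 5.85 CPM) and *Cdkn2c*, which blocks Cdk4 and Cdk6 (2.83 ± 0.399 and 2.50 ± 0.582 CPM), both had the lower mean in *Atm*-KO, with adjusted p values of 0.381 and 0.647 in edgeR.

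**Figure D2:**
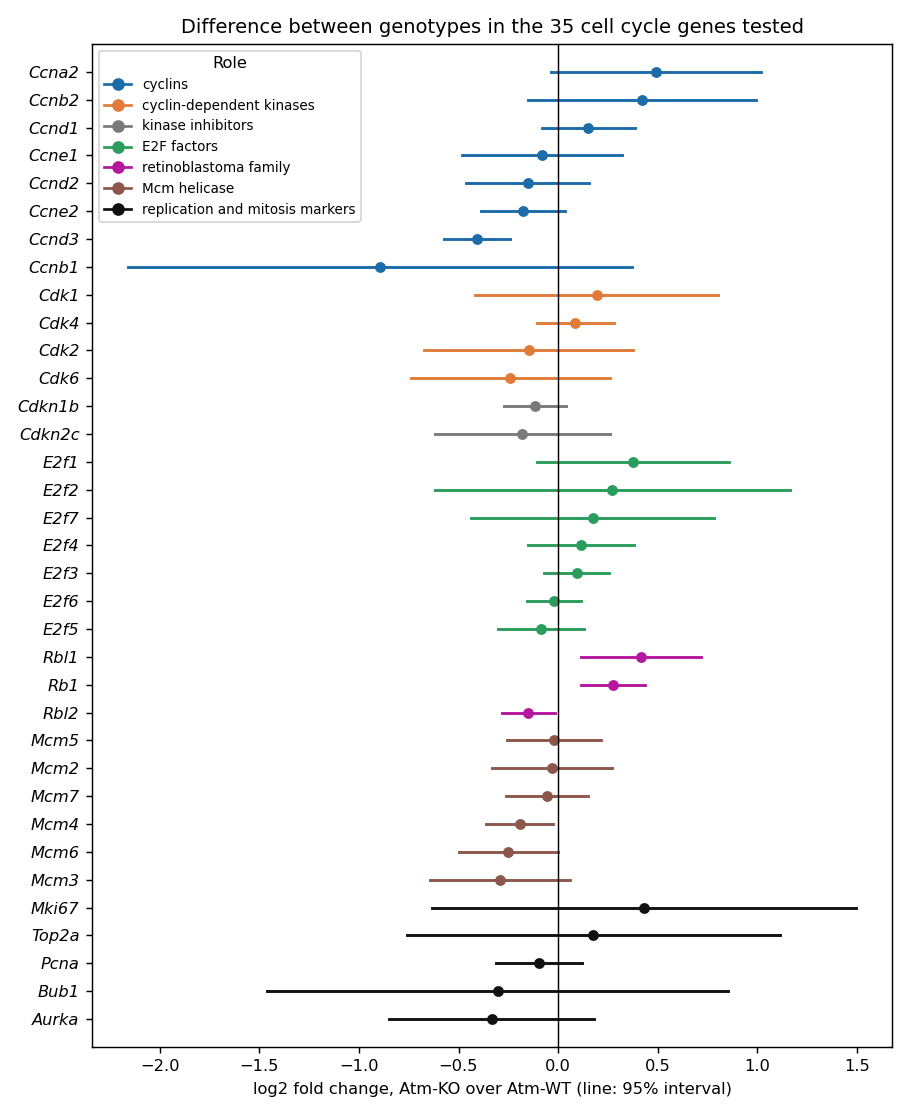
Log2 fold change of *Atm*-KO over *Atm*-WT for the 35 tested genes, coloured by role, with lines for the 95% intervals from edgeR. The intervals of *Ccnd3*, *Rb1*, *Rbl1*, *Rbl2*, *Mcm4* and *Mcm6* leave out 0, and those of the low genes such as *Ccnb1*, *Mki67* and *Bub1* are the widest.

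All 3 genes of the retinoblastoma family had an unadjusted p under 0.05, where 20.2% of all genes tested had one, and the CPM of the genotypes did not overlap in any of them. Across all members, 8 of 35 (22.9%) did not overlap, beside 11.6% of all genes tested. *Rb1*, which holds activating E2F factors in check, was at 77.1, 83.8, 85.3 and 73.9 CPM in *Atm*-WT against 100.5, 88.2, 94.0 and 104.5 CPM in *Atm*-KO. The highest values were those of *Atm*-KO 1M and 12M. The mean was 80.0 ± 5.43 and 96.8 ± 7.20 CPM, a log2 fold change of 0.27 (SE 0.073, 95% interval 0.11 to 0.43) with an adjusted p of 0.107 in edgeR and 0.0374 in DESeq2, and its unadjusted p was under 0.05 in all 16 alternatives. Of the genes that overlap its exons on the opposite strand, *Rcbtb2* was at 37.6 ± 2.001 and 36.9 ± 0.950 CPM and *Lpar6* at 2.78 ± 0.339 and 3.14 ± 0.448 CPM (log2 fold change 0.18, adjusted p = 0.591 in edgeR), and their part in the counts of *Rb1* was not tested.

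*Rbl1* encodes p107, the family member that is itself an E2F target and is most abundant in dividing cells. It was at 5.75, 6.13, 6.03 and 5.41 CPM in *Atm*-WT against 7.95, 6.95, 6.68 and 9.52 CPM in *Atm*-KO, with *Atm*-KO 12M the highest. Its log2 fold change was 0.41 (SE 0.14, 95% interval 0.11 to 0.72), with an adjusted p of 0.144 in edgeR and 0.0447 in DESeq2, and it was 0.30 without *Atm*-KO 12M and 0.25 with 1 surrogate variable (unadjusted p = 0.0582 in edgeR). *Rbl2* encodes p130, which with E2f4 and the MuvB complex represses cell cycle genes in resting cells. It was at 93.5, 94.2, 90.1 and 89.5 CPM in *Atm*-WT against 82.7, 86.2, 86.0 and 76.1 CPM in *Atm*-KO, again with *Atm*-KO 12M at the extreme. The log2 fold change was −0.15 (SE 0.060, adjusted p = 0.199 in edgeR), and its unadjusted p was under 0.05 in 7 of 16 alternatives. On the opposite strand its exons overlap *Aktip* (112.6 ± 5.91 and 107.4 ± 6.68 CPM) and the long non-coding *Gm45464* (3.38 ± 0.863 and 5.73 ± 1.116 CPM), whose part in its counts was not tested.

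The ratio of *Rb1* to *Rbl2* in each library, chosen after their values were seen and free of the scaling between libraries, described how these abundant members lay against each other. On the log2 scale of counts it was −0.28, −0.17, −0.077 and −0.28 in *Atm*-WT against 0.28, 0.032, 0.13 and 0.46 in *Atm*-KO. *Rbl2* had more counts than *Rb1* in every *Atm*-WT library and fewer in every *Atm*-KO library. The summed level of the family was 177.7 ± 6.75 CPM in *Atm*-WT against 187.3 ± 4.42 CPM in *Atm*-KO, with overlap.

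Of the E2F factors tested, 5 of 7 were higher and 2 lower in *Atm*-KO, and none had an unadjusted p under 0.05, where 46.9% of all genes tested were higher and 20.2% had such a p. With 1 surrogate variable, 3 were higher and 4 lower, and 1 (*E2f1*) had an unadjusted p under 0.05. The activators *E2f1* (1.43 ± 0.349 and 1.85 ± 0.195 CPM), *E2f2* (0.402 ± 0.170 and 0.488 ± 0.197 CPM) and *E2f3* (18.6 ± 0.632 and 19.8 ± 0.837 CPM) had log2 fold changes of 0.38, 0.27 and 0.09. *E2f2* was highest in *Atm*-KO 12M (0.740 CPM, other *Atm*-KO 0.269 to 0.516 CPM), and its log2 fold change was −0.056 with 1 surrogate variable. The repressors *E2f4* (16.0 ± 2.67 and 17.3 ± 1.29 CPM), *E2f5* (11.4 ± 0.927 and 10.7 ± 0.454 CPM) and *E2f6* (47.3 ± 0.950 and 46.6 ± 2.55 CPM) had log2 fold changes from −0.09 to 0.11. *E2f7*, an atypical repressor of late S phase, was at 1.34 ± 0.360 and 1.51 ± 0.425 CPM. *E2f8*, its partner, had 4, 4, 2 and 4 counts in *Atm*-WT against 8, 8, 8 and 0 in *Atm*-KO, where a count of 0 allows up to 3 counts. The smallest adjusted p of these factors in edgeR was 0.356.

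**Figure D3:**
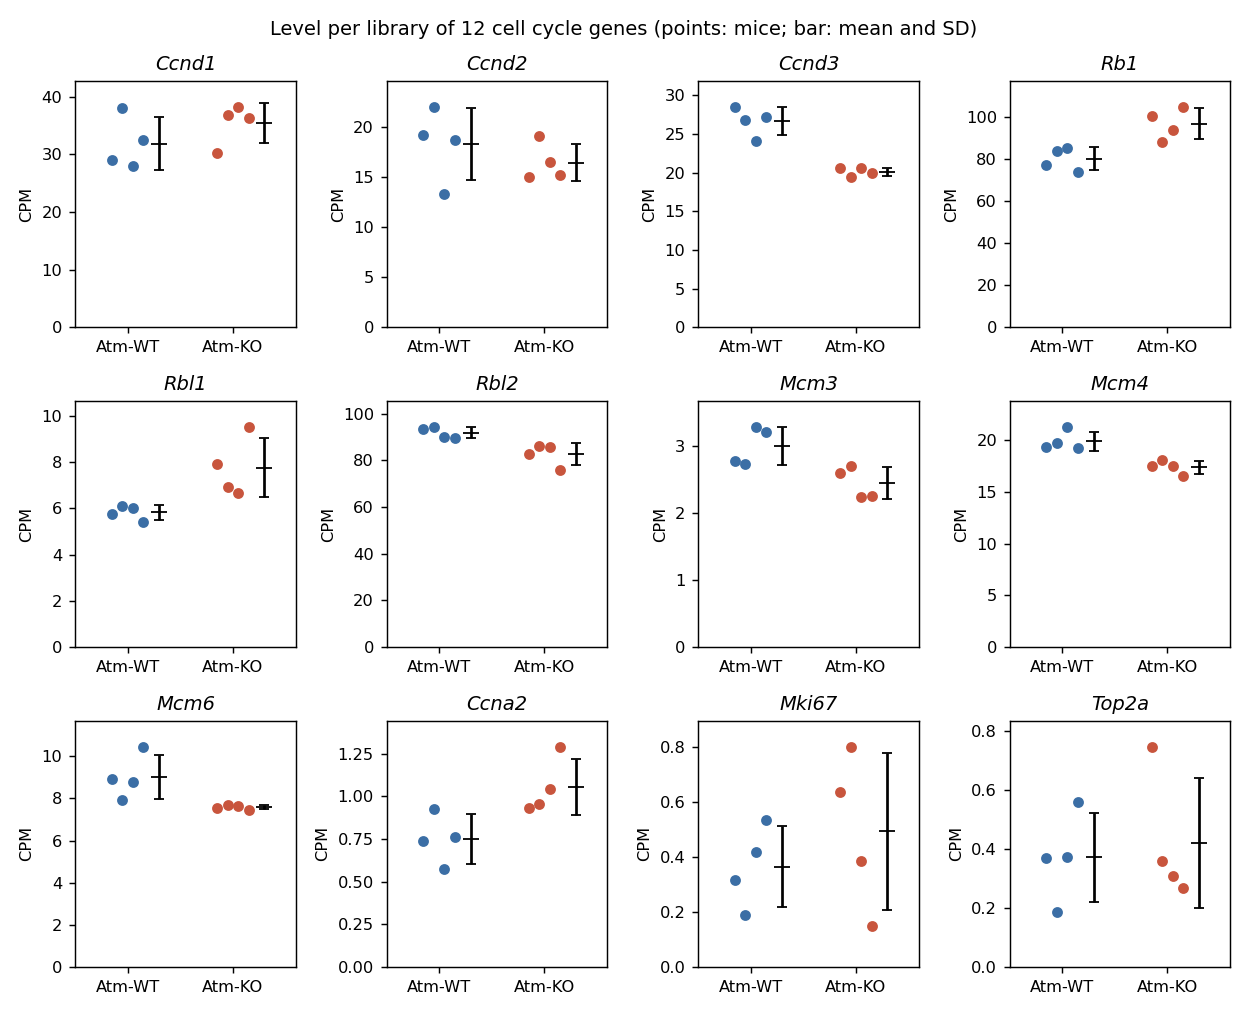
CPM of 12 of the genes in each library, with points for mice and bars for the mean and SD of 4 per genotype, on axes that start at 0. *Ccnd3*, *Rb1*, *Rbl1*, *Rbl2*, *Mcm3*, *Mcm4*, *Mcm6* and *Ccna2* do not overlap between genotypes, while *Ccnd1*, *Ccnd2*, *Mki67* and *Top2a* do.

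The 6 Mcm proteins form the ring that unwinds DNA at replication origins. All 6 genes had the lower mean in *Atm*-KO, although 2 of them changed sign when counts were scaled by library size alone and 3 without *Atm*-KO 11M, and 2 of 6 had an unadjusted p under 0.05. Beside these counts, 40.5% of all genes of 1 CPM or more were higher in *Atm*-KO, and 20.2% of all genes tested had an unadjusted p under 0.05. *Mcm4* was at 19.3, 19.8, 21.3 and 19.2 CPM in *Atm*-WT against 17.5, 18.1, 17.5 and 16.5 CPM in *Atm*-KO, without overlap. Its log2 fold change was −0.19 (SE 0.076, 95% interval −0.36 to −0.026, adjusted p = 0.192 in edgeR). *Mcm6* was at 8.91, 7.94, 8.80 and 10.4 CPM in *Atm*-WT against 7.53, 7.71, 7.66 and 7.46 CPM in *Atm*-KO. The log2 fold change was −0.25 (SE 0.11, adjusted p = 0.245 in edgeR). The *Atm*-KO libraries were close together, and the nearest *Atm*-WT library (7M) was less than 0.3 CPM above them.

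*Mcm3* was at 2.78, 2.74, 3.29 and 3.22 CPM in *Atm*-WT against 2.60, 2.71, 2.24 and 2.27 CPM in *Atm*-KO, a log2 fold change of −0.29 (adjusted p = 0.327 in edgeR). The values did not overlap, but those of *Atm*-WT 7M and *Atm*-KO 7F were nearly equal. *Mcm2* (9.47 ± 1.01 and 9.27 ± 1.54 CPM), *Mcm5* (9.70 ± 0.616 and 9.56 ± 0.831 CPM) and *Mcm7* (18.7 ± 0.619 and 18.0 ± 2.07 CPM) had log2 fold changes from −0.05 to −0.02. The summed level of the helicase genes was 66.4 to 71.3 CPM in *Atm*-WT against 60.4 to 67.5 CPM in *Atm*-KO, with overlap (exact permutation p = 0.0571, two-sided, where 0.0286 is the smallest that 4 against 4 can give). The sums of microglia markers, of Bergmann glia and astrocyte markers and of granule cell progenitor markers had the same exact permutation p. All these lists were chosen with earlier results of these data known. The unadjusted p was under 0.05 in 9 of 16 alternatives for *Mcm4* and in 3 of 16 for *Mcm6*.

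The markers of replication and mitosis overlapped between the genotypes. *Pcna* was at 29.0, 31.6, 40.6 and 36.1 CPM in *Atm*-WT against 33.4, 31.0, 31.0 and 33.0 CPM in *Atm*-KO (log2 fold change −0.10, 95% interval −0.31 to 0.12, adjusted p = 0.612 in edgeR). *Pcna* also serves DNA repair, and its level was far above that of the markers that follow. *Mki67*, which is made in all phases of the active cycle, was at 0.317, 0.188, 0.420 and 0.537 CPM in *Atm*-WT against 0.637, 0.800, 0.387 and 0.148 CPM in *Atm*-KO. The *Atm*-KO group held both the lowest and the highest library, with 10 and 62 counts. The difference was 0.43 on the log2 scale, with a 95% interval of −0.63 to 1.496 (adjusted p = 0.652 in edgeR). With a library left out it ran from 0.12 (without *Atm*-KO 7F) to 0.73 (without *Atm*-KO 12M), and with 1 surrogate variable it was 0.95, with an unadjusted p of 0.0473 and an adjusted p of 0.368 in edgeR.

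*Top2a*, the topoisomerase of replicating and mitotic chromosomes, was at 0.370, 0.188, 0.373 and 0.560 CPM in *Atm*-WT against 0.747, 0.361, 0.310 and 0.267 CPM in *Atm*-KO. Its log2 fold change of 0.18 (adjusted p = 0.853 in edgeR) rested on *Atm*-KO 1M and was −0.26 without it. The mitotic kinases *Aurka* (0.984 ± 0.194 and 0.781 ± 0.0639 CPM) and *Bub1* (0.279 ± 0.107 and 0.224 ± 0.181 CPM) had the lower mean in *Atm*-KO and adjusted p values of 0.449 and 0.787 in edgeR. *Bub1* overlapped through *Atm*-KO 7F alone (0.49 CPM, other *Atm*-KO 0.103 to 0.184 CPM, lowest *Atm*-WT 0.187 CPM). Together, *Ccna2*, *Ccnb1*, *Ccnb2*, *Cdk1*, *Mki67*, *Top2a*, *Aurka* and *Bub1* summed to 4.35 ± 0.272 CPM in *Atm*-WT against 4.79 ± 0.560 CPM in *Atm*-KO, with overlap (exact permutation p = 0.229, two-sided).

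Low genes were more often higher in *Atm*-KO across the whole table, which touches the members at low levels. Of the 8 tested members under 1 CPM, 5 were higher in *Atm*-KO, and of 6684 genes under 1 CPM, 62.2% were higher, with a median log2 fold change of 0.17. Of the 27 members of 1 CPM or more, 9 were higher, and of 15739 such genes 40.5% were, with a median of −0.04. Transcripts of the GENCODE class TEC, which await experimental testing, took 0.204% to 0.333% of counts in *Atm*-WT against 0.354% to 0.530% in *Atm*-KO. Their part in the values of low genes was not tested. Over all 35 tested members, the median log2 fold change was −0.05, beside −0.02 for all genes. The 95% interval lay within 0.5 of 0 on the log2 scale for 18 members and within 1 for 29. Outside the 6 members first named, an unadjusted p under 0.05 was reached under some alternative by *Ccna2*, *Ccnb1*, *Ccnd1*, *Ccnd2*, *Ccne2*, *E2f1* and *Mki67*. With a library left out, the sign changed under at least 1 choice of library for *Ccne1*, *Cdk2*, *E2f6*, *Mcm2*, *Mcm5*, *Mcm7*, *Pcna* and *Top2a*.

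**Figure D4:**
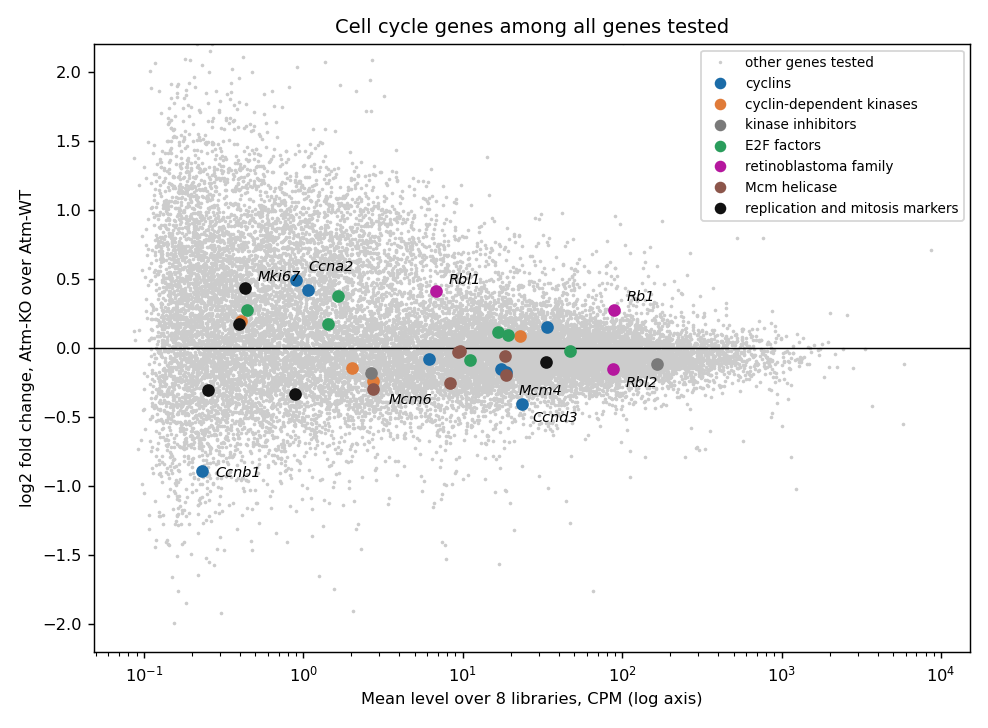
Log2 fold change of *Atm*-KO over *Atm*-WT against the mean CPM of 8 libraries (log axis) for the tested cell cycle genes, coloured by role, over all other genes tested in grey. The cell cycle genes lie inside the grey cloud at every level, and 32 genes fall outside the plotted range of fold changes.

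Of the other genes of the pathway, 123 were set out in 6 lists. Of 116 tested, 0 passed an adjusted p of 0.05 in edgeR and 0 in limma voom, 14 (12.1%) had an unadjusted p under 0.05, with 7 in each direction, beside 20.2% of all genes tested. There were 11 (9.48%) that did not overlap between the genotypes, beside 11.6% of all genes tested. By list, the unadjusted p was under 0.05 for 2 of 20 genes of replication licensing and origin firing, 2 of 26 of the replication fork, 1 of 8 of nucleotide supply, 1 of 30 of mitosis and spindle, 6 of 18 regulators of cyclin-dependent kinases, and 2 of 14 E2F partners and MuvB genes. DESeq2 called *Cdc25b*, *Cdc7* and *Wee1* among the 111 to which it gave an adjusted p, where 7.49% of all genes were called. *Tk1*, *Aurkb*, *Aurkc*, *Ndc80*, *Kif2c*, *Cdkn2a* and *Cdc25c* were too low to test.

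*Cdc7*, the kinase that fires licensed origins, was at 19.4, 18.7, 18.4 and 14.5 CPM in *Atm*-WT against 26.8, 21.7, 25.1 and 30.4 CPM in *Atm*-KO (log2 fold change 0.55, SE 0.12, adjusted p 0.0931 in edgeR and 0.00237 in DESeq2). *Cdc25b*, a phosphatase that activates Cdk1, was at 8.85, 9.01, 9.52 and 6.62 CPM in *Atm*-WT against 13.5, 12.1, 11.7 and 16.3 CPM in *Atm*-KO (log2 fold change 0.65, SE 0.14, adjusted p 0.0931 in edgeR and 0.00156 in DESeq2). *Wee1*, the kinase that opposes it, was at 28.8, 30.1, 34.8 and 29.0 CPM in *Atm*-WT against 25.9, 25.9, 25.1 and 23.1 CPM in *Atm*-KO (log2 fold change −0.29, SE 0.082, adjusted p 0.113 in edgeR and 0.0347 in DESeq2). None of these 3 genes overlapped between the genotypes. The next higher genes were thymidylate synthase *Tyms* (log2 fold change 0.49), *Ccnf* (0.41) and the inhibitor of the anaphase-promoting complex *Fbxo5* (0.45), with adjusted p values from 0.158 to 0.223 in edgeR.

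On the lower side, *Rpa1*, a subunit of the protein that coats single-stranded DNA, was at 91.5 ± 1.67 CPM in *Atm*-WT against 81.0 ± 0.440 CPM in *Atm*-KO without overlap (log2 fold change −0.18, adjusted p = 0.120 in edgeR). *Cdkn1a*, which encodes the p53 target p21, was at 24.0, 16.8, 45.1 and 12.5 CPM in *Atm*-WT against 11.7, 17.5, 9.74 and 9.33 CPM in *Atm*-KO. The groups overlapped, and *Atm*-WT 13M was far above the rest, so that the log2 fold change of −1.03 had an SE of 0.34 (adjusted p = 0.146 in edgeR, and 0.04997 without the filter on low counts) and was −0.54 without that library. *Nuf2*, of the kinetochore, and *Lin54*, the DNA-binding subunit of MuvB, had log2 fold changes of −0.50 and −0.23 (adjusted p 0.156 and 0.161 in edgeR).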

How the data were processed

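The authors sent frozen cerebellum to a sequencing service (Illumina HiSeq), checked reads with FastQC 0.11.9, aligned them with STAR to GRCm39 and counted them per gene with featureCounts, and they deposited raw counts without normalization. Versions of STAR and featureCounts, and the strand and pair settings, were not given in the sources used here. The annotation was named as GENCODE Release 28. Among member counts from 1 to 50, 44 of 54 were even (81.5%), so whether a count is a read or a pair was not settled. Without a strand setting, genes that overlap on opposite strands cannot be told apart, which applied to 21 members.

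Identifiers were matched to GENCODE vM39, which held 56017 of them (98.8%) and gave symbols, positions, exon lengths and promoters. Both genotypes were compared with edgeR 4.0.16 (R 4.3.3; filterByExpr, TMM factors, quasi-likelihood test with default settings, Benjamini-Hochberg adjustment across the whole table), and the members were read from that fit. No adjustment was made over the members alone. Totals per library of 65967130 to 88030300 counts set the precision of low genes. Levels are CPM with TMM factors, divided by exon length where genes are compared. The edgeR procedure was also run on counts simulated from the mean levels and fitted dispersions, with each library drawn independently. Such counts hold no differences in tissue composition, so the run cannot show how these affect the calls. Alternatives were DESeq2 1.42.0, limma voom 3.58.1, RLE factors, library size alone, no filter, at least 10 counts in every library, 1 surrogate variable (sva 3.50.0), halved counts, and each library left out. Sums over lists were compared with exact permutation tests.

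The members and lists were chosen with earlier results of these data known. Values per library are given for members with an unadjusted p under 0.05 or without overlap, for the D-type cyclins, and for *Cdk1*, *Pcna*, *Mki67* and *Top2a*. Of the other pathway genes, 5 higher and 5 lower genes are named, those of smallest p. Marker lists are given as sums. Labels give each library its own number and letter, read here as a separate mouse, and the study's text describes its replicates as biological. No sample was left out.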

Additional observations from a re-analysis of the deposited data

Results flagged for a closer look

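One of 90 groups of values examined, each a gene in the 4 mice of one genotype, held a library far from the others. *E2f8* was at 0 CPM in *Atm*-KO 12M and at 0.098 to 0.103 CPM in the other *Atm*-KO mice. These values stood for 0 against 8 counts, and a count of 0 allows up to 3. Chance alone flags about 1 in 20 such groups, or 4.5 here.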

How the results depend on the processing

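For 14 named members under 16 alternatives, 217 values kept their direction and their side of the threshold, 4 passed it (*Ccnd3*, *Rb1* and *Rbl1* in DESeq2, and *Ccnd3* without a filter) and 3 reversed. The genes called over the whole table were 4 in edgeR, 1552 in DESeq2, 591 without a filter on low counts (1.62% of 36568 genes), 14 with 1 surrogate variable and 1 to 27 with a library left out. The members called were 0, and 3 in DESeq2 and 1 without a filter (*Ccnd3*, adjusted p = 0.0296 in edgeR). The other pathway genes called were 0, 3 in DESeq2 (*Cdc25b*, *Cdc7* and *Wee1*) and 3 without a filter (*Cdc25b*, *Cdc7* and *Cdkn1a*). Members with an unadjusted p under 0.05 were 6, and 3 to 7 with a library left out, 3 being the value without *Atm*-KO 12M (*Ccnd3*, *Rb1* and *Rbl1*). Other pathway genes with an unadjusted p under 0.05 were 14, 8 with 1 surrogate variable and 10 to 18 with a library left out. The median log2 fold change of the members was −0.05, and −0.092 to 0.014 with a library left out, with 0.00034 without *Atm*-KO 7F and 0.014 without *Atm*-KO 11M. *Pcna* reversed to 0.0089 without *Atm*-WT 13M, and *Top2a* to −0.047 without *Atm*-WT 7M and −0.26 without *Atm*-KO 1M; with a library left out their log2 fold changes ran from −0.17 to 0.0089 and from −0.26 to 0.44. The unadjusted p of *Rbl1* was 0.0582 in edgeR with 1 surrogate variable, the exception among its alternatives. Members without overlap between genotypes have no value with a surrogate variable. Without scaling factors, 17 of 35 members were higher in *Atm*-KO, against 14 with them. The cause of these changes was not tested. No paired analysis was possible because the labels pair no mice between the genotypes. For members under 1 CPM, the depth leaves wide intervals.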
